A study of Mus musculus with 3 samples.

Results

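The extracellular matrix proteases and inhibitors described here are 51 of 21761 protein-coding genes of the mouse RefSeq annotation: 19 Adamts genes, 5 Adamtsl genes, 23 Mmp genes and 4 Timp genes, chosen by their symbols. They were examined in ChIP-seq of LMX1B, the homeodomain transcription factor of the LIM class that sets dorsal limb fate, in fore- and hindlimb buds of C57BL/6 embryos at embryonic day 12.5, pooled in 2 runs of 48 limb buds. The first ChIP, whose track name marks it as wild type (WT), listed 1287 intervals (peaks), and the validation ChIP, made with the same polyclonal antibody BMO8 and with no genotype in its track name, listed 4501. Each ChIP is 1 sample, so no value has a spread between replicates and no test between samples was possible; input DNA, from pooled WT and mutant chromatin per its label, had no interval list. An interval list holds no expression level, so neither the labelled tissue nor the activity of these genes was checked.

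ADAMTS proteins are secreted zinc metalloproteases that carry thrombospondin repeats and cut large proteoglycans, procollagens and other matrix proteins. ADAMTS-like proteins have the ancillary domains but no protease domain and bind matrix fibrils. Matrix metalloproteinases (MMPs) cut collagens, gelatin and many other matrix and cell surface proteins, and tissue inhibitors of metalloproteinases (TIMPs) block them. In the mouse limb, ADAMTS5, ADAMTS9 and ADAMTS20 are known to act together on versican in the tissue between the digits while it regresses.

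The window in which an interval counted for a gene, its domain, ran from the gene body outwards on each side until another protein-coding gene began, or for 1 Mb. An interval counted by its midpoint, and a first-ChIP interval was called shared when it overlapped a validation interval by at least 1 bp. A distance to a gene is to the nearer end of its body. The score is the whole number the authors deposited for each summit; it has no stated unit and was compared only within its own list. Coordinates of intervals and genes are on mm10, counted from 1. Summit positions were used as deposited, so a distance from a summit to a gene position can be 1 bp off. Exons and introns were not resolved.

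Of the 51 members, 12 held an interval in their domain and 39 held none. The 12 were 9 Adamts genes, both long Adamtsl genes (Adamtsl1 and Adamtsl3) and 1 Mmp gene, Mmp16. A validation interval was present in all 12 (23.5% of the members), where 15.1% of all protein-coding genes had one. A first-ChIP interval was present in 4 members (7.84%, against 6.04% of all genes), and the same 4 had a shared interval (7.84%, against 3.41%). These 4 were Adamtsl1, Adamtsl3, Adamts9 and Adamts16. All 4 Timp genes and 22 of the 23 Mmp genes were without an interval of either list. Of all genes, 16.7% had an interval of either list, and of those with a domain under 100 kb 7.95%. That class held 19 of the 23 Mmp genes and 3 of the 4 Timp genes. With an extension of at most 100 kb, or by nearest gene only, 2 members had a shared interval (3.92%, against 2.16% and 2.48% of all genes) and 2 a first-ChIP one (3.92%, against 4.58% and 4.52%).

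**Figure D1:**
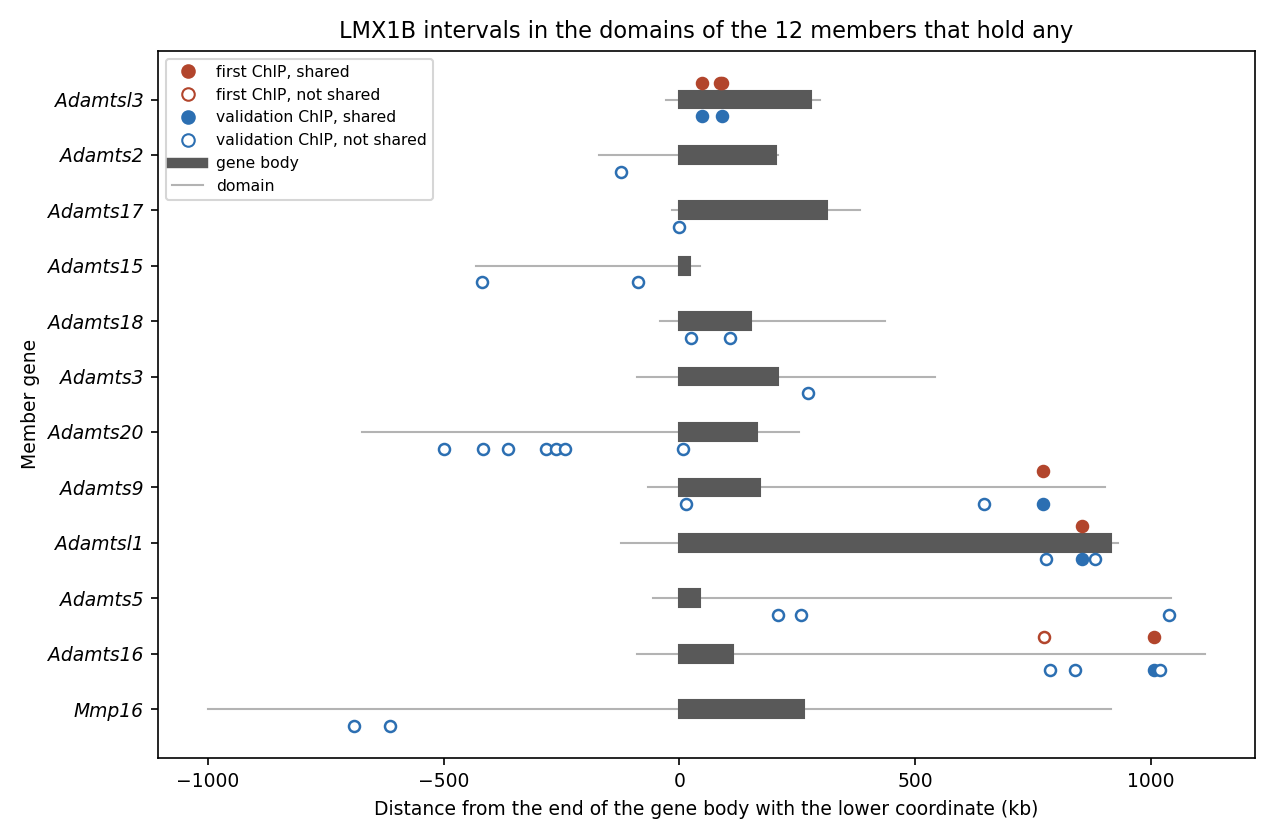
Position of every interval in the domains of the 12 members that hold any, in kb from the gene end with the lower coordinate. Grey boxes are gene bodies, thin lines are domains, and filled circles are intervals shared by both lists; the unshared first-ChIP interval of Adamtsl3 lies mostly under the shared one at its right. Shared intervals lie inside the bodies of Adamtsl3 and Adamtsl1 and far outside those of Adamts9 and Adamts16.

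The members with intervals were those with long domains. The shortest domain that held an interval was that of Adamtsl3, with 325.5 kb. None of the 28 members with a domain under 100 kb held one, where 6.35% of all genes of that class had a validation interval and 0.895% a shared one. Of the 23 members with at least 100 kb, 12 had a validation interval (52.2%, against 29.4%) and 4 a shared one (17.4%, against 7.55%). For the first ChIP it was 0 of 28 (against 2.77%) and 4 of 23 (17.4%, against 11.4%). At 300 kb and above, a class added after the values were seen, these were 12 of 16 (75%, against 46.6%) and 4 of 16 (25%, against 15.1%), with a first-ChIP interval in the same 4 genes (25%, against 20.8%). The 4 members of that class with no interval were Adamts1, Adamts6, Adamts12 and Adamts19. Length was not matched within these classes. At 100 kb and above the median domain was 381.5 kb for members and 232.7 kb for all genes. At 300 kb and above it was 476.7 kb and 593.0 kb.

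The families differed in domain length, with a median of 381.5 kb for Adamts genes and 62.9 kb for Mmp genes, against 67.3 kb for all genes. Counted per length instead, and with overlapping domains merged, ADAMTS and ADAMTSL domains covered 9.90 Mb and held 29 validation intervals, or 2.93 per Mb. MMP and TIMP domains covered 3.23 Mb and held 2, or 0.620 per Mb. Both lay in the domain of Mmp16, which alone spans 1915 kb, so this density rests mostly on 1 gene. Domains of all genes held 1.70 validation intervals per Mb. For shared intervals the densities were 0.505 per Mb in ADAMTS and ADAMTSL domains and 0 in MMP and TIMP domains, against 0.266 per Mb over all genes. With 1 sample per ChIP these densities describe the lists and carry no test.

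**Figure D2:**
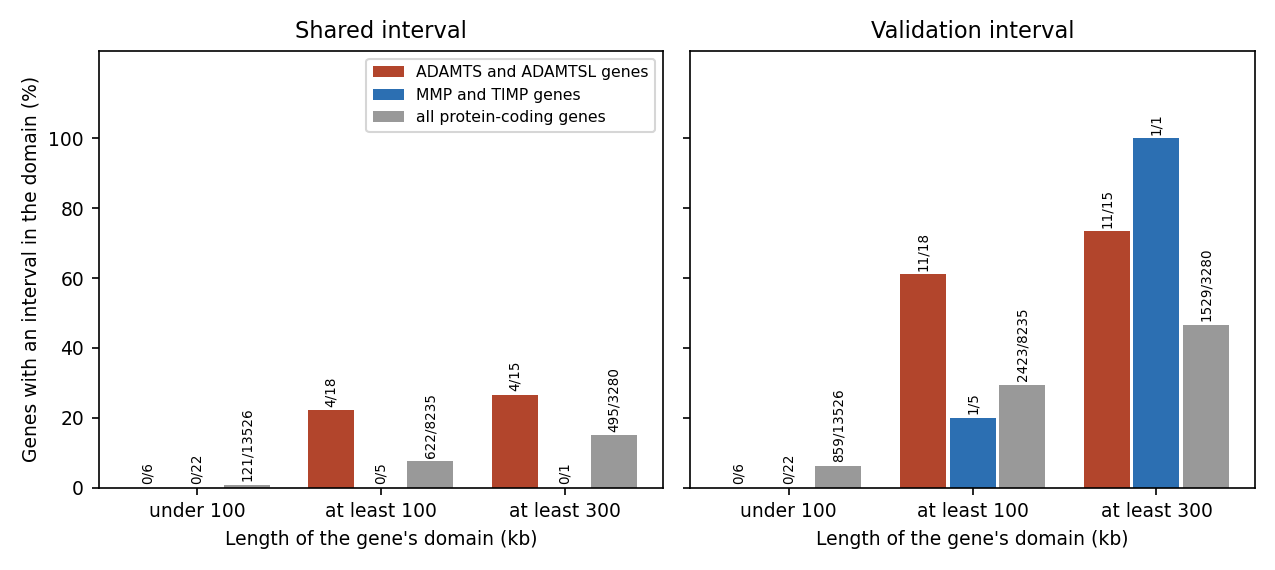
Percentage of genes with a shared interval (left) or a validation interval (right) in the domain, by length of the domain in kb; genes of at least 300 kb are also among those of at least 100 kb. Each bar is marked with the number of genes with an interval and the number in the class. No member with a domain under 100 kb held an interval, and 11 of the 15 ADAMTS and ADAMTSL genes at 300 kb and above held a validation interval.

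Among the ADAMTS-like glycoproteins, Adamtsl3 held the most intervals shared by both lists. Its body spans chromosome 7 from 82335399 to 82614450, and the gene is read from the lower coordinate. The first ChIP listed 3 intervals in it: at 82383076 to 82383802 with a score of 27, at 82421207 to 82421525 with 16, and at 82424991 to 82425436 with 23. The validation ChIP listed 2, at 82382935 to 82383927 (score 16) and at 82424850 to 82425693 (score 14). All lay inside the gene body, 47.7 to 89.6 kb after its start site. The first and the last of the first-ChIP intervals were wholly covered by the validation intervals, with summits 48 bp and 149 bp apart, where the median of all 709 shared pairs was 64 bp. The middle interval was 3.33 kb from the nearest validation interval. Of all 21761 genes, 174 had at least 2 shared intervals, as Adamtsl3 did; among the 3024 genes with a domain at least as long, it was 5.16%, and 28.5% had as many validation intervals.

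Adamtsl1 encodes another protein of the same kind, also known as punctin. The gene is the longest of the members, with a body of 914.5 kb on chromosome 4 (85513852 to 86428390). Its first-ChIP interval at 86367060 to 86367404 had a score of 18, which is below the median of 20 in that list. The overlapping validation interval at 86367189 to 86367911 had a score of 15. Only 216 bp were common to both, 62.6% of the first and 29.9% of the second, and the summits were 256 bp apart, the widest of the 5 shared pairs in member domains. Further validation intervals lay on both sides of it, at 86289366 to 86290731 and at 86395439 to 86396020, each with a score of 14. All 4 intervals were inside the gene body, 32.7 to 138.3 kb from its upper end. As many validation intervals were found in 28.7%, and as many shared ones in 23.2%, of the 742 genes with a domain at least as long. The other 3 members, Adamtsl2, Adamtsl4 and Adamtsl5, had short domains (20.0 to 71.0 kb) with no interval.

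Of the 7 ADAMTS genes whose proteins cut aggrecan or versican, 4 had a validation interval and 1 a shared one. Their domains ran from 20.2 to 1098 kb, with a median of 475.4 kb. Over all genes 15.1% had a validation interval and 3.41% a shared one. Among all genes with at least 300 kb it was 46.6% and 15.1%. Adamts4 and Adamts8, with 20.2 and 107.3 kb, are below that length. No length class therefore matches the whole group, and the counts are not read as a trait of it. Adamts9 held the interval with the highest score of any in a member domain, in each list. On chromosome 6 the first ChIP listed it at 93543239 to 93544020 with a score of 33, and 87 of the 1287 intervals scored at least as high. The validation ChIP listed it at 93543079 to 93544141 with a score of 24, reached by 170 of its 4501 intervals. The pair overlapped by 782 bp, with summits 208 bp apart. It lay 599.2 kb from the body of Adamts9 (92772699 to 92944450), on the side before its start site, and 131.8 kb from Magi1, the next gene in that direction. A validation interval at 93417418 to 93418199 (score 14) lay in the same stretch, 473.4 kb from Adamts9 and 257.6 kb from Magi1. The third, at 92786844 to 92787389 (score 8), was the only interval inside the gene body, 156.4 kb after the start site. Of the 919 genes with a domain at least as long, 27.5% had as many validation intervals and 22.5% as many shared ones.

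Adamts20, the gene of the mouse belted coat mutation and the closest relative of Adamts9, held the most validation intervals of any member, 7, and no first-ChIP interval. Its body lies on chromosome 15 at 94268314 to 94432074, read from the higher coordinate. The interval inside it, at 94275305 to 94275862, had a score of 11. The other 6 lay beyond the far end of the gene, in the gap to Prickle1, within 257.2 kb of each other. In order of coordinate they started at 93769377 (score 12), 93851515 (8), 93903913 (12), 93985462 (8), 94005834 (15) and 94026062 (10). The first 3 were nearer to Prickle1 (173.5 to 308.0 kb) than to Adamts20 (364.0 to 498.6 kb), and the last 3 were nearer to Adamts20 (242.0 to 282.6 kb). Only 9 of all genes had at least 7 validation intervals and no first-ChIP interval, of the 138 with at least 7. The nearest first-ChIP interval was 2435 kb away from any of them. Of the 965 genes with a domain at least as long as that of Adamts20, 8.39% had as many validation intervals.

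Adamts5, the main aggrecanase of mouse cartilage, had 3 validation intervals and no first-ChIP interval. All lay on the side away from Adamts1, its neighbour on chromosome 16, and outside the body (85858157 to 85901125). The one at 86115146 to 86116025 had a score of 19, the highest of the unshared validation intervals in member domains, and lay 214.5 kb from Adamts5. The others, at 86067858 to 86068302 (score 9) and 86894862 to 86895427 (score 13), were 167.0 kb and 994.0 kb away. The last is close to the largest distance the domain allows, and N6amt1 lies nearer to it, at 459.0 kb. As many validation intervals lay in 29.1% of the 649 domains at least as long as that of Adamts5. Adamts1, whose domain reaches up to Adamts5, held none.

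Adamts15 had 2 validation intervals on chromosome 9, both on the side away from its neighbour Adamts8. The one at 30810178 to 30810790 (score 9) lay 88.7 kb from the gene, and the one at 30480515 to 30480958 (score 13) lay 418.4 kb from it and 13.6 kb from Snx19. Adamts8 and Adamts4 held none in their domains of 107.3 and 20.2 kb. For this group of proteases 13 of the 15 validation intervals lay outside the gene body. The share over all genes was not computed, so this is not read as a trait of the group. The body made up 43.0 of 1098 kb in the domain of Adamts5 and 163.8 of 926.4 kb in that of Adamts20.

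The procollagen N-proteinases, which trim the amino end of fibrillar procollagens, had intervals of the validation list only, in 2 of 3 genes. Their domains ran from 108.9 to 630.8 kb. Of all genes with at least 100 kb, 29.4% had a validation interval, and of those with at least 300 kb 46.6%. In the domain of Adamts2 an interval on chromosome 11 at 50477056 to 50477476 (score 10) lay 124.8 kb before the start site and 46.0 kb from Rufy1. Adamts3 had an interval on chromosome 5 at 89945043 to 89945835 (score 11), 62.1 kb before its start site and with no other gene nearer. Adamts14 had none in 108.9 kb, and the nearest validation interval anywhere was 4358 kb from it, the farthest of all members. No interval was listed in the domains of Adamts7 and Adamts12, which cut cartilage oligomeric matrix protein, of Adamts13, which cuts von Willebrand factor, or of Adamts6 and Adamts10, which are linked to fibrillin microfibrils.

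Of the 4 ADAMTS genes with less well known substrates, Adamts16, Adamts17 and Adamts18 had intervals in their domains and Adamts19 had none. A validation interval (score 14) lay 24.4 kb from Adamts19, but outside its domain and 1.16 kb from Minar2. All 4 genes have domains of at least 382.6 kb. Of all genes with at least 300 kb, 48.4% had an interval of either list. Adamts16 (chromosome 13, 70727798 to 70841845) had 2 first-ChIP and 4 validation intervals, all 658.1 kb or more from the gene, in a domain that ends at the limit of 1 Mb. The shared pair at 71734363 to 71734879 in the first ChIP and 71734218 to 71734923 in the validation ChIP had scores of 19 and 17, with summits 48 bp apart. A first-ChIP interval at 71499661 to 71500176 had the higher score of 26 but no partner, and the nearest validation interval, at 71512412 to 71512866 (score 10), was 12.2 kb away. The remaining validation intervals, at 71565163 to 71565686 and 71746349 to 71746910, had scores of 12 and 11. All 6 were nearer to Irx1, an Iroquois homeobox gene beyond the domain, than to Adamts16: the shared pair was 223.6 kb from Irx1 and 892.8 kb from Adamts16. Among the 487 genes with a domain at least as long, 20.5% had as many validation intervals and 24.6% as many shared ones. Adamts18 (chromosome 8, 113697123 to 113849343) had validation intervals inside its body at 113804174 to 113804739 (score 12) and 113721368 to 113721847 (score 8), 44.4 and 127.2 kb after its start site.

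Adamts17, whose human counterpart is mutated in a short-stature syndrome with lens defects, was the only member with an interval at its promoter. The validation ChIP listed it on chromosome 7 at 66839397 to 66839971 with a score of 11, the median of that list. It reached from 338 bp before the RefSeq start site at 66839735 to 236 bp after it, and its summit was about 57 bp after the start site. The nearest first-ChIP interval was 1221 kb from the gene. Promoter windows, from 250 bases before to 50 after a start site, were held in the RefSeq table (GRCm38.p6, the same coordinates as mm10) for 36 of the 51 members. A validation interval overlapped such a window at 1 of these 36 members and a first-ChIP interval at 0, where over all genes it was 1.89% and 1.13%. The stretch under the interval is shown from 250 bases before the start site to 10 after it, chr7:66839485-66839744, plus strand, with the letters TAATTA in capitals; these letters are the core to which many LIM homeodomain proteins bind.

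Adamts17 promoter: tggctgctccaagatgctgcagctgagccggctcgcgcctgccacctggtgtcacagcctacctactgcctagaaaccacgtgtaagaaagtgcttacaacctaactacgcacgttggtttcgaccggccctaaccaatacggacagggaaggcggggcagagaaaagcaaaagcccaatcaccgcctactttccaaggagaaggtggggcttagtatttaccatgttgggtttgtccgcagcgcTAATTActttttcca

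TAATTA reads the same on both strands and was found in 4 of the 39 windows of members (10.3%), against 4.53% of the 21248 windows of all genes. With the shorter core TAAT on either strand the order turned: 17 of the 39 windows (43.6%) held it, against 51.7% of all. The other 3 were those of Mmp10, Mmp20 and Mmp27, neighbours in the MMP cluster of chromosome 9, where neither ChIP listed an interval. The 4 matches are set side by side, each on the plus strand with the motif in capitals, because only the first lies under an interval:
Adamts17, chr7:66839718-66839747: tgtccgcagcgcTAATTActttttccaaag
Mmp10, chr9:7502101-7502130: ttttgcaaatatTAATTAcccagacagtcc
Mmp20, chr9:7628106-7628135: aaacaagctgtgTAATTAccatttgagaca
Mmp27, chr9:7571400-7571429: ctttgctgttatTAATTAagtgattacttc
In Adamts17 the motif started 5 bases before the start site, so that its last letter is the first transcribed base, and it ended about 57 bp before the summit. In Mmp10 and Mmp20 it started 229 and 113 bases before the start site, and in Mmp27 it followed it. The 250 bases before the start were 54.4% G and C in Adamts17, against 37.2% in Mmp10, 45.6% in Mmp20 and 38.8% in Mmp27; the medians were 62% for windows of members and 55.6% for those of all genes. A match of 6 letters is a description of the sequence and not a site of binding.

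Mmp16, which encodes a membrane-type MMP, was the only Mmp gene with intervals. It has the longest domain of the members, 1915 kb on chromosome 4. Of all genes with a domain of at least 300 kb, 46.6% had a validation interval. The validation ChIP listed 2 intervals there, at 17162134 to 17162747 (score 9) and at 17239883 to 17240579 (score 11), 690.6 and 612.8 kb from the gene body (17853072 to 18117479). No other gene was nearer, and no first-ChIP interval lay within 4085 kb of the gene. Domains of the other membrane-type genes, Mmp14, Mmp15, Mmp17, Mmp24 and Mmp25, were 34.3 to 83.2 kb long and empty.

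The collagenase genes Mmp1a, Mmp1b, Mmp8 and Mmp13, the stromelysin genes Mmp3 and Mmp10, and Mmp7, Mmp12, Mmp20 and Mmp27 form a cluster of 10 genes on chromosome 9. Their merged domains span 0.543 Mb, and no interval of either list lay in them. Domains of all genes held 1.70 validation and 0.486 first-ChIP intervals per Mb, so a stretch this short holds few or none at that density. The nearest validation interval was 303.7 kb from Mmp7, at 1 end of the cluster. For the first ChIP the distances ran from 6578 kb for Mmp7 to 6994 kb for Mmp13. Both gelatinase genes were empty too. Mmp2 has a domain of 174.4 kb and its nearest validation interval was 465.5 kb away. Mmp9 has a domain of 48.3 kb, and the nearest interval of each list was 220.7 kb away.

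Genes of the inhibitors held no interval: the domains of Timp1, Timp2, Timp3 and Timp4 were empty. Empty domains were common, since only 16.7% of all genes held an interval of either list. Timp1, Timp3 and Timp4 lie inside the synapsin genes Syn1, Syn3 and Syn2, so their domains are no longer than their bodies (4.57, 49.1 and 7.76 kb). A validation interval on chromosome 10 at 86397999 to 86398556 (score 10), 48.8 kb from Timp3 and inside Syn3, would count for Timp3 if the surrounding gene did not end its domain. Timp2 lies in a domain of 102.5 kb, and its nearest validation interval was 552.3 kb away. The nearest first-ChIP interval was 64086 kb from Timp1, the only member on chromosome X.

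**Figure D3:**
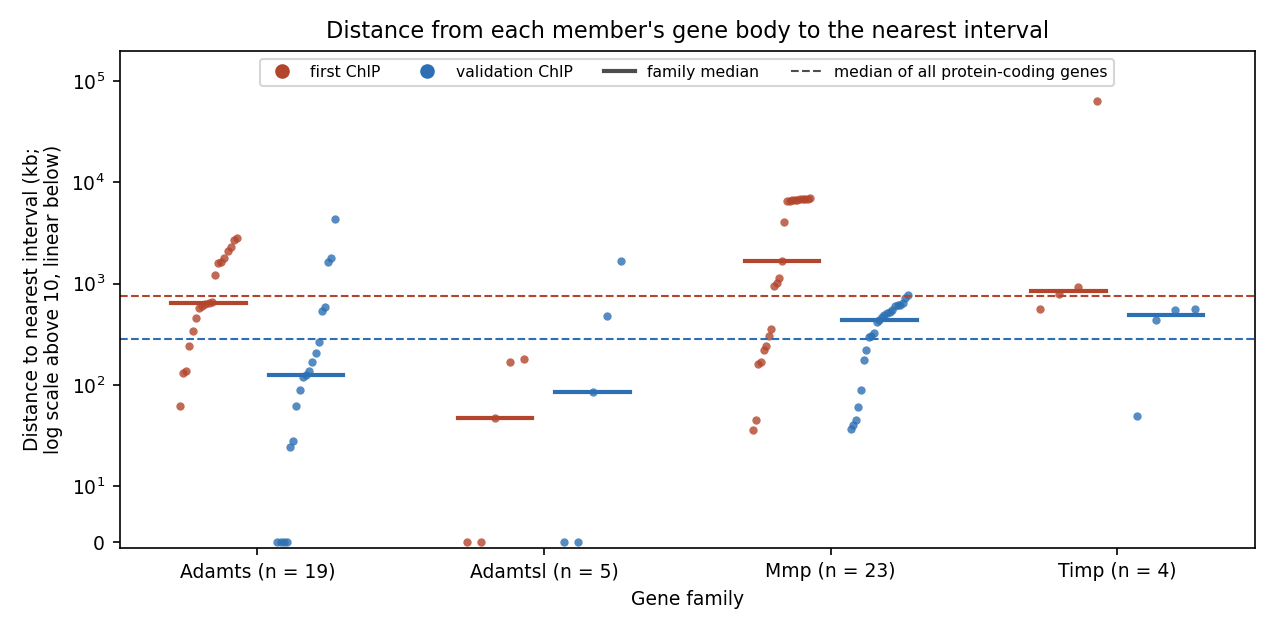
Distance in kb from each member's gene body to the nearest interval of the first ChIP (red) and the validation ChIP (blue), whatever genes lie between, by family; points within a family are ordered by distance. Solid bars are family medians and dashed lines the medians of all protein-coding genes, 755.0 kb and 280.6 kb. The Mmp medians of 1665 kb and 434.8 kb lie above the dashed lines. Of the 23 Mmp genes, however, 10 are neighbours in the chromosome 9 cluster and share their nearest intervals, with medians of 6784 kb and 509.7 kb. The family medians are therefore not read as a trait of Mmp genes. Outside the cluster, Mmp genes lie on both sides of each dashed line. The 10 cluster genes form the group at the top for the first ChIP.

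Distances that ignore the domains gave a median of 121.7 kb from ADAMTS and ADAMTSL genes to the nearest validation interval and 434.8 kb from Mmp genes, against 280.6 kb for all genes. Of the 23 Mmp genes, 10 form the chromosome 9 cluster and share 1 nearest validation interval (median 509.7 kb). Outside the cluster the Mmp distances ran from 36.8 kb (Mmp21) to 769.5 kb (Mmp25). The Mmp median therefore rests heavily on 1 locus and is not read as a trait of the family. Over all 51 members the median distance to a validation interval was 297.3 kb. Within 50 kb of the body, 12 members (23.5%) had a validation interval, against 18.3% of all genes, and 3 (5.88%) a shared one, against 3.15%. In 8 members an interval lay within 50 kb but outside the domain, beyond or inside a neighbouring gene. The only shared one of these was 44.9 kb from Mmp24, a membrane-type gene mostly known from the nervous system. It lay on chromosome 2 at 155862829 to 155863721 in the first ChIP (score 20), inside Uqcc1. The first-ChIP interval 47.1 kb from Adamtsl5, with a score of 48, lay inside the ribosomal protein gene Rps15. An interval inside or beyond a neighbour cannot be given to either gene from its position alone.

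In all, 7 first-ChIP intervals and 31 validation intervals lay in member domains. Of the first-ChIP intervals 5 were shared (71.4%, 95% Wilson interval 35.9 to 91.8), against 54.9% of the whole list. Of the validation intervals it was also 5 (16.1%, 7.09 to 32.6), against 15.6%. The Wilson intervals cover counting error only and treat the intervals as independent, although 7 of the 31 lay in the domain of Adamts20. They are no test against the whole list, and no difference from it is claimed. Median scores in member domains were 23 in the first ChIP and 12 in the validation ChIP, against 20 and 11 over the whole lists. Of the 31 validation intervals 9 lay in the body of a member and 22 outside, and 12 of the 31 were nearer to the body of another gene. The same shares over all genes were not computed, so these counts only describe the member domains.

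**Figure D4:**
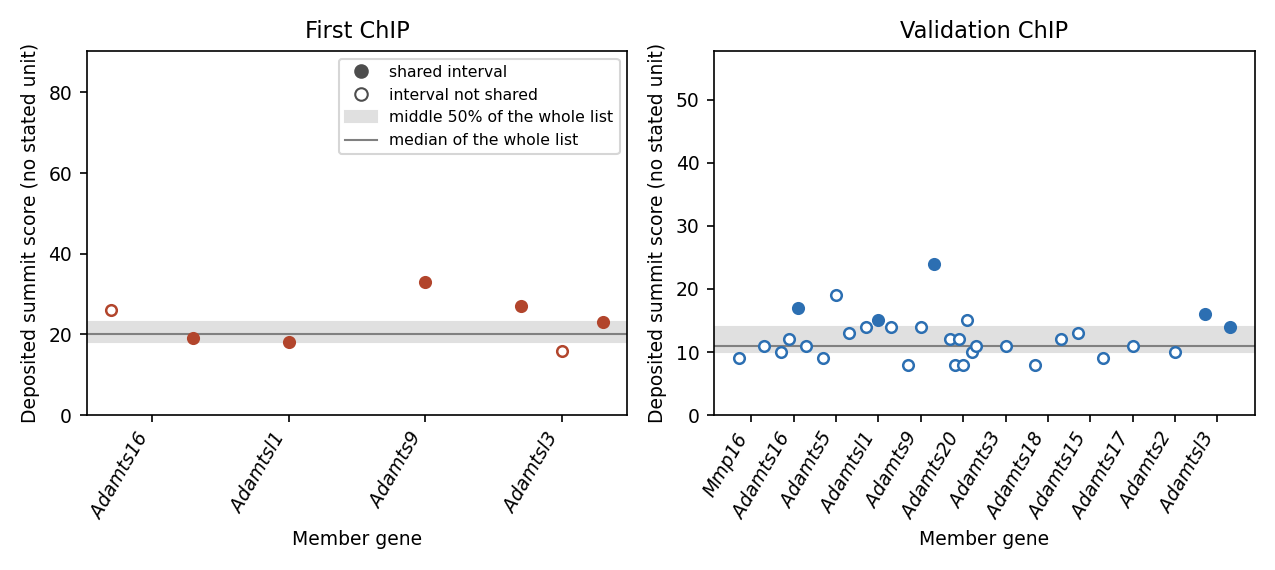
Deposited summit score of every interval in a member domain, by gene, for the first ChIP (left) and the validation ChIP (right); filled circles are shared. The grey band is the middle 50% of the whole list and the line its median (20 and 11). Adamts9 has the highest score in both panels, 33 and 24, and all member scores are far below the list maxima of 86 and 55.

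Related genes of matrix turnover were counted the same way. Of 65 genes in 6 lists, 1 had a shared interval in its domain (1.54%, against 3.41% of all genes), 2 a first-ChIP one (3.08%, against 6.04%) and 12 a validation one (18.5%, against 15.1%). The shared one was in Fbn2, a fibrillin gene on chromosome 18, at 58206738 to 58207042 (score 22). Among 15 matrix substrates, with a median domain of 210.0 kb, 5 had a validation interval (33.3%). Of all genes with a domain of at least 100 kb it was 29.4%, so this count is not read as a trait of the substrates. Vcan, the gene of versican, was among these 5. It had 1 interval inside its body on chromosome 13 at 89726362 to 89726960 (score 11) and 1 at 54.9 kb (score 16). Of 10 genes for astacin proteases and procollagen processing, with a median domain of 116.4 kb, 3 had a validation interval (30%). They were Pcolce, Pcsk5 and Tll1, a tolloid-like protease gene with an interval of score 26 on chromosome 8 at 64216215 to 64216805. Bmp1, of the same list, had a first-ChIP interval at its gene end (chromosome 14, 70474362 to 70474742, score 18). The 10 ADAM sheddase genes, the 10 genes of the plasminogen system, the 10 of cathepsins and other proteases and the 10 of other inhibitors had 1 each with a validation interval: Adam23, Thbd, Mme and Spock1.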

How the data were processed

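BWA and the build mm10 are named in the submitters' processing notes. Not given in the sources used here are the version of BWA, the peak caller and its threshold. The authors deposited, for each ChIP, an interval track and a summit track with a whole-number score; per the file headers, track names tie them to samples. Depth is unknown, since interval lists hold no reads. The later file repeats the 1287 intervals of the first ChIP with the same scores and 1286 identical summits; it was used, and the copy counted once.

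Gene bodies came from a RefSeq table of GRCm38.p6, placed genes starting from 3 Mb. A neighbour that overlaps a gene's edge ended its domain there. The members, the lists and the tests were chosen with earlier results of these data known. The naming rule was: every member with a shared interval, then those with an interval of 1 list by score, at most 15 per list, other members by family, and related genes with a shared interval; other related genes were named after their values were seen. Counts are set beside all genes, with no test. Functions were checked on simulated intervals. Alternatives were stricter overlap, a score minimum, other windows, nearest gene and summits. Python 3.11.15, pandas 2.3.3, numpy 2.4.6 and scipy 1.17.1 were used.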

Additional observations from a re-analysis of the deposited data

Results flagged for a closer look

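A further deposited list, named Active Regions, entered none of the comparisons and held 5 regions in member domains. Each was identical to a shared first-ChIP interval: 2 in Adamtsl3 and 1 each for Adamtsl1, Adamts9 and Adamts16. The unshared first-ChIP intervals of Adamtsl3 and Adamts16 were not in it. The whole list holds 735 regions, and 707 first-ChIP intervals are shared in all. How the list was derived was not examined, so the match is no independent support for these intervals.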

How the results depend on the processing

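With shared intervals, 4 members were counted (7.84%, against 3.41% of all genes); with both lists limited to scores at or above their medians 2 remained (Adamts9 and Adamtsl3; 3.92%, against 2.49%), and with an extension of at most 100 kb, or by nearest gene only, 2 (Adamtsl1 and Adamtsl3; 3.92%, against 2.16% and 2.48%). With first-ChIP intervals the count of 4 (7.84%, against 6.04%) fell to 2 under the latter settings (3.92%, against 4.58% and 4.52%), again without Adamts9 and Adamts16, whose intervals lie farther from them than these windows reach or nearer to other genes. When both intervals had to be covered for 50% or more, Adamtsl1 no longer counted. The 12 members with a validation interval (23.5%, against 15.1%) became 8 to 13 under the alternatives, within 1.5-fold: 8 with at most 100 kb (15.7%, against 12.5%), 10 by nearest gene (19.6%, against 11.3%), 11 at or above the median score (21.6%, against 9.95%) and 13 with overlapping neighbours ignored (25.5%, against 16.4%). With 50 kb around the body it was 12 (23.5%, against 18.3%), but only 6 of the 12 were kept and 6 others entered, among them Timp3 and Mmp24. With the core TAAT on either strand in place of TAATTA, 17 of 39 windows matched (43.6%, against 51.7% of all windows). No paired analysis was possible because each ChIP is 1 sample. Depth could not be examined, so an empty domain does not show that LMX1B is absent there.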
